A study of Mus musculus with 12 samples.

Results

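The clustered histone genes were taken as every row of the deposited count tables whose symbol begins with Hist1h, Hist2h, Hist3h or Hist4h, and this rule gave 68 of 23238 gene symbols. By class they were 6 linker histone H1 genes, 18 H2A, 19 H2B, 12 H3 and 13 H4 genes. In GENCODE M21 (mm10), 54 of them lie on mouse chromosome 13, 10 on chromosome 3, 3 on chromosome 11 and 1 on chromosome 6. RNA was sequenced from mouse lung in 12 libraries, 3 without irradiation (NoIR) and 3 each taken 8, 11 and 14 days after irradiation (IR_8d, IR_11d and IR_14d). Per the series description the irradiated tissue was sampled only where the lung had been irradiated. The sources used here do not give the radiation dose, the strain and age of the mice, or the lung region of the controls. Nothing in the labels says that replicates came from separate mice, and the p-values then describe only the spread among these libraries, which may be technical. The question the comparisons address is how histone mRNA levels in irradiated lung differed from those in unirradiated lung at each time, and between the times.

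Histones H2A, H2B, H3 and H4 form the protein core of the nucleosome, around which DNA is wrapped, and H1 binds the linker DNA between nucleosomes. Most genes of the clusters are transcribed in S phase, when new DNA has to be packaged, and their mRNAs end in a conserved stem-loop in place of a poly(A) tail. The stem-loop is bound by Slbp, the mRNA end is made with the help of the U7 particle (Lsm10 and Lsm11), and Npat activates transcription. Some members also give longer or spliced polyadenylated transcripts, which cells outside S phase can make. A protocol that selects poly(A) RNA recovers the stem-loop form poorly. The library kit named in the labels can be used with or without poly(A) selection, and the sources used here do not say which was done.

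The 3′ stem-loop is the shared sequence feature of these genes, and its 16 bases are shown to let the classes be compared. A match was found in the annotated GENCODE M21 transcripts of 46 of the 68 genes. A match was in 63.2% of the members' transcripts, against 0.0445% of transcripts of all other genes. The most common form was shared by 26 genes of classes H1, H2A, H2B and H3, among them Hist1h1c (chr13:23738808-23740367, plus strand), and 7 H4 genes shared another form, among them Hist1h4h (chr13:23531050-23531519, plus strand). Hist1h3e, Hist1h4b and Hist1h4i carried forms shared with few other members, and Hist1h4a was alone with its form. Capitals mark the 6 bases of each stem arm, and lower case the loop.
Hist1h1c: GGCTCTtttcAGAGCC
Hist1h4h: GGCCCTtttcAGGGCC
Hist1h3e: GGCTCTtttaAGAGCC
Hist1h4b: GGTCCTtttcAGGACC
Hist1h4i: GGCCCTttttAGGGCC
Hist1h4a: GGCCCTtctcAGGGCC
The other 22 genes have no such letters in their annotated transcripts, among them Hist1h2bc, Hist1h4k and Hist2h2be. Several of these transcripts end at the stop codon, before the place of a stem-loop. That of Hist1h4k holds 312 bases, against a RefSeq span of 409. A missing match therefore does not show that a gene lacks the stem-loop. By RefSeq 6 H2B genes span more than 1000 bases: Hist1h2bc, Hist1h2be, Hist1h2bp, Hist1h2bq, Hist1h2br and Hist2h2be. These 6 genes held 35.9% of all counts on the members.

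Promoter sequence was compared between the classes because their changes differed in size. RefSeq promoter entries (GRCm38.p6) were found for 62 of the 68 genes, and the 250 bases before the start were searched on both strands. The octamer ATTTGCAT was in 7 of 18 H2A and 6 of 16 H2B promoters, in none of the H1, H3 and H4 promoters, and in 1.60% of all 32851 promoters. CCAAT was in all 6 H1, all 18 H2A and all 16 H2B promoters, in 8 of 10 H3 and in 3 of 12 H4 promoters, against 33.9% of all promoters. AAACACA, known as the H1 box, was in 5 of 6 H1 promoters and 6.25% of all promoters, and TATAAA in 29 of the 62 and 12.4% of all. A promoter is shown for H4, H2B and H1. Hist1h4h is the H4 gene with the most counts, Hist1h2bk stands head to head with Hist1h2ah and its window holds the octamer, and Hist1h1c is the main H1 gene. All 3 windows lie on the plus strand of chromosome 13, at chr13:23530794-23531043, chr13:22035571-22035820 and chr13:23738557-23738806 in the order shown. Capitals mark matches to the searched motifs on either strand, and none of the 4 was found in the Hist1h4h window.
Hist1h4h: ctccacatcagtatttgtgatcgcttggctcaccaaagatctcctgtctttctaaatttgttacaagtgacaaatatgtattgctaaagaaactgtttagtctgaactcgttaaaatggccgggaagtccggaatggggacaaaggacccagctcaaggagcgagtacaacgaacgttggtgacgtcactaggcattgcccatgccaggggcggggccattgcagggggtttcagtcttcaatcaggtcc
Hist1h2bk: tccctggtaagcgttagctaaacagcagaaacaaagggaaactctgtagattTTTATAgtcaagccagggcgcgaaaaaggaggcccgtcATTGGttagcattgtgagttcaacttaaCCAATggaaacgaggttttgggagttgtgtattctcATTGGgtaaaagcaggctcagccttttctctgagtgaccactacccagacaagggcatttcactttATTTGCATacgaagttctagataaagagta
Hist1h1c: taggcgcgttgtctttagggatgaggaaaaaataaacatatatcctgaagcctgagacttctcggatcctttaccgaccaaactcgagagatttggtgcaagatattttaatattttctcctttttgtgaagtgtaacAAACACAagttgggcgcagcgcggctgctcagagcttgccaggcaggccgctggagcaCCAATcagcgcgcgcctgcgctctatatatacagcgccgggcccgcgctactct

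The libraries held 19624554 to 27765751 counts, of which the 68 genes took 0.0319% to 0.0729%. Within IR_8d, replicate 1 stood apart with 0.0398%, against 0.0729% and 0.0610% in replicates 2 and 3. Within IR_11d, replicate 2 held the highest share of Rn45s, a ribosomal RNA precursor (6.27%, against 1.71% to 4.0% in the other 11 libraries). It also held 307 counts of Rpph1 and 133 of Rmrp, RNAs without a poly(A) tail, against at most 30 and 8 in any other library. Its histone share (0.0491%) lay next to those of the other IR_11d libraries (0.0501% and 0.0541%). The class sums and the counts of members called are given without these libraries too.

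Histone mRNA was higher in irradiated lung at all 3 times, and the H4 class differed most in fold. Summed over all 68 genes, the mean level in CPM (deposited counts scaled by TMM to a common library size) was 324 ± 9.71 in NoIR, 559 ± 164 in IR_8d, 526 ± 21.9 in IR_11d and 502 ± 59.0 in IR_14d (SD, n = 3). Relative to unirradiated lung the sums at 8, 11 and 14 d were 1.73-fold, 1.62-fold and 1.55-fold, and at none of the times did the groups overlap. The H4 sum was 5.44-fold at 8 d, 4.36-fold at 11 d and 4.95-fold at 14 d, and the H1 sum 2.31-fold, 1.95-fold and 2.53-fold at the same times. The H2A sum was 1.67-fold, 1.58-fold and 1.38-fold, the H2B sum 1.71-fold, 1.62-fold and 1.62-fold, and the H3 sum 1.46-fold, 1.32-fold and 1.78-fold. H2A and H2B gave 46.8% and 46.2% of the counts on the members, H1 3.77%, H4 1.84% and H3 1.4%. The H2A share counts both Hist2h2aa1 and Hist2h2aa2, and the H3 share and sum count both Hist2h3c1 and Hist2h3c2 (35.0% of the class counts each). The H3 sum thus mostly follows these 2 genes. Summed to 1 row, the 9 Hist1h3 genes changed by 2.0 ± 0.55, 1.49 ± 0.56 and 1.82 ± 0.55 on the log2 scale at 8, 11 and 14 d (SE). The 3 Hist2h3 genes as 1 row changed by 0.20 ± 0.26, 0.18 ± 0.26 and 0.65 ± 0.25 and were not called. With 1 row for each group of genes that share sequence, the sums were 104 CPM for H2A and 175 CPM for H2B at 14 d, against 80.9 and 111 CPM in unirradiated lung. The sums use all members, including those with too few counts to be tested alone, and no test was made on a sum. Without IR_8d replicate 1 the 8 d sums were 5.92-fold for H4, 2.57-fold for H1, 1.87-fold for H2A, 2.03-fold for H2B and 1.64-fold for H3. Without IR_11d replicate 2 the 11 d sums were 4.02-fold for H4, 2.04-fold for H1, 1.58-fold for H2A, 1.68-fold for H2B and 1.25-fold for H3. In bulk tissue, more cells that make histone mRNA and more histone mRNA per cell cannot be told apart.

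**Figure D1:**
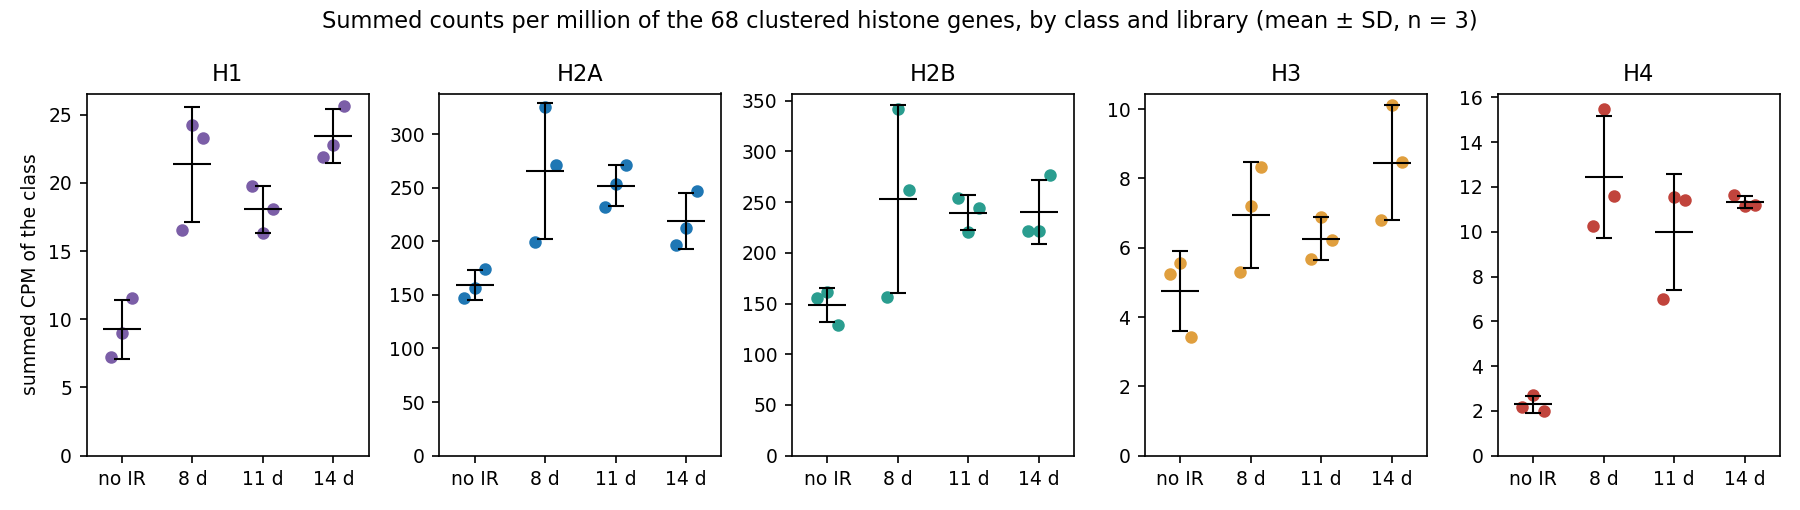
Summed level in CPM (linear axis from 0) of each histone class in the 12 libraries, by group from no irradiation to 14 d. Points are libraries, and bars are the mean ± SD (n = 3). All 9 irradiated libraries lie above all 3 unirradiated ones for H1, H2A and H4, while IR_8d replicate 1 falls among the unirradiated values for H2B and H3.

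Of the 68 genes, 50 passed the filter on low counts and 39 of these were called higher at 1 or more times, 27 of them at all 3. The shares of all genes higher at any time or at all 3 were not taken, so the 39 and 27 have no background. At 8 d 31 members were higher and 0 lower than unirradiated lung, beside 13% of all 16484 genes tested that were higher and 10.6% that were lower. At 11 d 37 members were higher and 0 lower, beside 19.4% and 17.8% of all genes, and at 14 d 33 were higher and 0 lower, beside 20% and 18.9%. An adjusted p below 0.05 made a call (edgeR quasi-likelihood test, n = 3 per group), and the 3 comparisons share the unirradiated libraries. At an unadjusted p below 0.05, 37, 40 and 42 members differed in either direction, beside 35.1%, 46.5% and 46.5% of all genes tested. DESeq2 called 32, 38 and 33 members higher and 0 lower, beside 14.3%, 20.5% and 21.2% of all genes higher. The median log2 change of the tested members was 0.91 at 8 d, 0.95 at 11 d and 0.93 at 14 d, beside 0.01, -0.01 and 0.01 over all genes tested. By class the medians at 8 d were 2.59 for H4, 1.21 for H1, 0.96 for H2B, 0.76 for H2A and 0.51 for H3. In 32, 41 and 44 of the 50 genes all irradiated libraries lay above all unirradiated ones at 8, 11 and 14 d, beside 19.8%, 28.2% and 25.8% of all genes tested.

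These counts have limits set by depth and by copies. The filter asks for about 10 counts (0.424 CPM) in at least 3 libraries. Of the 50 tested genes, 13 were under it in at least 1 unirradiated library, including 8 of the 9 H4 and 3 of the 5 H3 genes. These 13 passed through the irradiated libraries. The counts of members called and their medians are therefore a description of the genes that passed. Without NoIR replicate 2, 20 genes were higher at 8 d, and without IR_8d replicate 1, 37 were. Without IR_11d replicate 2, 34 were higher at 11 d. Between the irradiated times no member was called for 11 d against 8 d, 14 d against 11 d or 14 d against 8 d, beside 2.14%, 1.8% and 15.4% of all genes tested. Without IR_11d replicate 2, 24 of all genes were called for 14 d against 11 d, against 296 with it. At an unadjusted p below 0.05 there were 4, 1 and 7 of 50 members in these comparisons, beside 15.8%, 16.3% and 28.2% of all genes. DESeq2 called no member, beside 5.27%, 5.02% and 19% of all genes. Without IR_8d replicate 1, Hist2h2aa1, Hist2h2aa2, Hist1h2be and Hist1h2bn were called lower at 14 d than at 8 d, with log2 changes of -0.55, -0.56, -0.74 and -0.78.

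**Figure D2:**
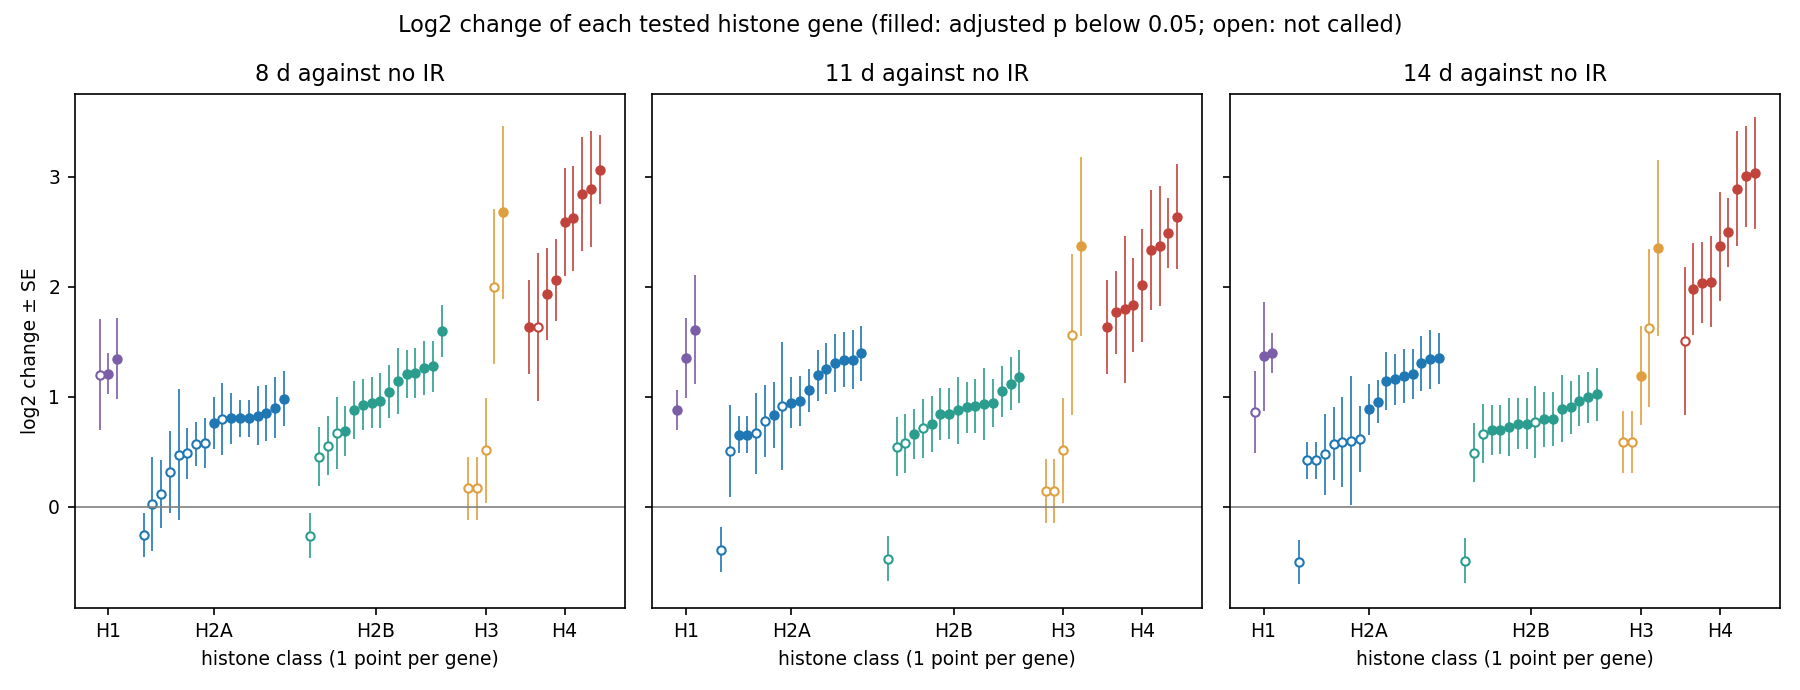
Log2 change with its SE of each tested histone gene against unirradiated lung at 8, 11 and 14 d, 1 point per gene, ordered within each class. Filled points passed an adjusted p below 0.05. H4 genes lie between 1.51 and 3.07 over the 3 panels, and the lowest H2A and H2B points, below 0 at each time, are Hist3h2a and Hist2h2be.

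The 13 H4 genes encode the histone that pairs with H3. Their summed level was 2.19, 2.69 and 1.99 CPM in the NoIR libraries, 10.3, 15.5 and 11.6 at 8 d, 7.02, 11.5 and 11.4 at 11 d, and 11.6, 11.2 and 11.2 at 14 d. The lowest irradiated library was above the highest unirradiated one. Counts were few, from 55 to 73 per library on all 13 genes without irradiation and from 166 to 344 after it.

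Hist1h4h led the class with 29.0% of its counts. Its level was 3.33, 5.72 and 3.75 CPM at 8 d against 0.603, 0.443 and 0.470 CPM in unirradiated lung. At 11 d it was 2.20, 2.67 and 3.73 CPM and at 14 d 2.47, 2.75 and 3.38 CPM. No irradiated library overlapped the unirradiated ones, where the gene held 16, 12 and 13 counts. Its log2 change was 3.07 ± 0.31 at 8 d, 2.49 ± 0.32 at 11 d and 2.5 ± 0.31 at 14 d (SE; adjusted p = 1.6e-05, 3.59e-05 and 2.11e-05, edgeR quasi-likelihood test).

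Hist1h4a, Hist1h4b and Hist1h4k were the other H4 genes among the largest rises. Hist1h4a had 0.707 ± 0.285 CPM at 8 d, 0.714 ± 0.115 at 11 d and 0.926 ± 0.144 at 14 d, against 0.110 ± 0.0354 in unirradiated lung. Those unirradiated libraries held 3, 2 and 4 counts of it. The log2 change of Hist1h4b was 2.84 ± 0.52, 2.33 ± 0.55 and 3.03 ± 0.51 at 8, 11 and 14 d, and that of Hist1h4k was 2.89 ± 0.53, 2.37 ± 0.55 and 2.89 ± 0.52. Both were called at each time, and their groups did not overlap. The unirradiated libraries held only 2, 2 and 3 counts of Hist1h4b and 3, 3 and 3 of Hist1h4k. Hist1h4n, the gene second in counts, had 1.82 ± 0.492, 1.49 ± 0.538 and 1.79 ± 0.465 CPM at 8, 11 and 14 d against 0.431 ± 0.0619 in unirradiated lung. Hist1h4i rose by 1.64 ± 0.43, 1.83 ± 0.42 and 1.98 ± 0.42 on the log2 scale. Of the 9 H4 genes tested, 8, 9 and 8 rose at 8, 11 and 14 d, beside 13%, 19.4% and 20% of all genes tested. The exception at 8 d and 14 d was Hist1h4c, with log2 changes of 1.64 ± 0.67 and 1.51 ± 0.67 that did not pass. Of the 9 genes, 8 were under the filter cut in at least 1 unirradiated library and passed through the irradiated ones. The count of H4 genes that rose is therefore partly set by the filter.

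Among the H1 genes, Hist1h1c held 86.1% of the counts of the class. Its level was 14.3, 21.1 and 19.9 CPM at 8 d against 6.52, 7.68 and 9.68 CPM in unirradiated lung. It was 15.9, 12.4 and 15.7 CPM at 11 d and 20.2, 20.3 and 22.6 CPM at 14 d. The groups did not overlap, and 11 d was the lowest of the irradiated times by mean. The log2 change was 1.21 ± 0.18, 0.88 ± 0.18 and 1.40 ± 0.18 at 8, 11 and 14 d (adjusted p = 0.000322, 0.00187 and 3.04e-05). Hist1h1e rose at 8 d and 11 d (log2 change 1.35 ± 0.36 and 1.35 ± 0.37), and at 14 d its change of 0.86 ± 0.37 did not pass. Hist1h1d rose at 11 d and 14 d (1.61 ± 0.49 and 1.37 ± 0.50), and its change of 1.20 ± 0.50 at 8 d did not pass. Hist1h1a, Hist1h1b and Hist1h1t, the last known as a testis form, held too few counts to test.

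The H2A class was led by Hist2h2aa1 and Hist2h2aa2 on chromosome 3, neighbouring copies with 41.3% of the class counts each. Hist2h2aa1 had 85.4, 142 and 115 CPM at 8 d against 59.0, 64.8 and 72.3 CPM in unirradiated lung. It had 94.1, 102 and 113 CPM at 11 d and 78.2, 83.4 and 101 CPM at 14 d. All irradiated libraries were above all unirradiated ones. Its log2 change was 0.80 ± 0.17 at 8 d and 0.66 ± 0.17 at 11 d (adjusted p = 0.00357 and 0.00774), and 0.42 ± 0.17 at 14 d, which did not pass (adjusted p = 0.0635). Hist2h2aa2 gave the same log2 changes to 2 decimals.

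The chromosome 13 H2A genes held fewer counts, and 11 of them are linked by shared sequence. Hist1h2ap, with the most counts of these 11, had 4.34 ± 0.735 CPM at 8 d, 6.09 ± 0.615 at 11 d and 5.67 ± 0.239 at 14 d, against 2.92 ± 0.592 in unirradiated lung. It rose at 11 d and 14 d (log2 change 1.06 ± 0.20 and 0.95 ± 0.20), and its change of 0.57 ± 0.20 at 8 d did not pass. Of 17 H2A genes tested, 8 rose at 8 d, 12 at 11 d and 9 at 14 d, beside 13%, 19.4% and 20% of all genes tested. The 17 include the 11 linked genes and the copies Hist2h2aa1 and Hist2h2aa2, so they may not be separate measurements.

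Hist3h2a on chromosome 11 and Hist2h2be on chromosome 3 were the 2 tested members whose estimate was below 0 at all 3 times, although neither was called. They are named here after their values were seen. Hist3h2a, an H2A gene, had 8.82 ± 1.93, 8.05 ± 1.5 and 7.45 ± 0.897 CPM at 8, 11 and 14 d, against 10.6 ± 1.90 CPM in unirradiated lung. Its log2 change was -0.26 ± 0.20, -0.39 ± 0.20 and -0.50 ± 0.20. Hist2h2be, an H2B gene, had 4.16 ± 0.541, 3.61 ± 0.955 and 3.55 ± 0.264 CPM at these times, against 4.99 ± 0.377 CPM. Its log2 change was -0.26 ± 0.20, -0.47 ± 0.21 and -0.49 ± 0.20. At 14 d both genes were lower in all 3 irradiated libraries than in any unirradiated one (25% of all genes tested were lower in that way). The annotated transcript of Hist3h2a runs 1643 bases past its stem-loop and overlaps that of Trim17, so counts on it may include reads of that gene. Hist2h2be shared no stretch of 50 bases with any other annotated transcript, and no stem-loop match was found in it. In a fit of only the compared groups Hist3h2a was called lower at 14 d (adjusted p = 0.0492), and without IR_11d replicate 3 Hist2h2be was called lower at 11 d (adjusted p = 0.0234).

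In the H2B class, Hist1h2bc alone held 62.1% of the counts, and 28.7% of those of all members. It had 92.8, 210 and 152 CPM at 8 d against 95.6, 108 and 79.5 CPM in unirradiated lung, and IR_8d replicate 1 lay inside the unirradiated range. At 11 d it had 158, 132 and 156 CPM and at 14 d 137, 142 and 179 CPM, all above the unirradiated libraries. The log2 change was 0.69 ± 0.23, 0.66 ± 0.23 and 0.70 ± 0.23 at 8, 11 and 14 d (adjusted p = 0.0421, 0.0354 and 0.0251). The 8 d call was lost in 8 of 15 alternatives, among them limma-voom, and with 1 library left out the change ranged from 0.38 to 0.94. The 11 d call was lost in 4 alternatives and the 14 d call in 3, each without 1 library. Per kilobase of annotated exon, Hist1h2bc had 132 CPM per kb at 14 d and 81.5 in unirradiated lung, and Hist2h2aa1 149 at 14 d and 112 in unirradiated lung.

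Hist1h2be had 15.4 ± 5.16 CPM at 8 d, 12.9 ± 1.49 at 11 d and 10.9 ± 1.57 at 14 d, against 6.69 ± 0.636 in unirradiated lung, and rose at each time. Its annotated exons share sequence with those of Hist1h1e, so the counts of the 2 genes may not be separate. Hist1h2bg rose at each time (log2 change 0.97 ± 0.25, 0.75 ± 0.25 and 0.79 ± 0.25), and Hist1h2bh rose at 8 d and 14 d (0.88 ± 0.26 and 0.73 ± 0.26). Hist1h2bn gave the largest H2B rise at 8 d, a log2 change of 1.60 ± 0.24 (adjusted p = 0.000304). Of 16 H2B genes tested, 12 rose at 8 d, 12 at 11 d and 12 at 14 d, beside 13%, 19.4% and 20% of all genes tested. The 16 include 11 genes linked by shared sequence, so they may not be separate measurements.

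The H3 genes held the fewest counts, and only 5 of 12 could be tested. Hist2h3c1 and Hist2h3c2, which held 35.0% of the class counts each, had 2.18 ± 0.675 CPM at 8 d, 2.16 ± 0.441 at 11 d and 2.93 ± 0.448 at 14 d, against 1.95 ± 0.503 in unirradiated lung. Their groups overlapped at 8 d and 11 d, and no change was called. Hist2h3b was called at 14 d (log2 change 1.19 ± 0.45, adjusted p = 0.0484), where it had 0.735 ± 0.149 CPM against 0.320 ± 0.0594 in unirradiated lung. That call was lost in 11 of 15 alternatives, DESeq2, limma-voom and the loss of any 1 of the compared libraries among them. Hist1h3e rose at all 3 times (2.68 ± 0.79, 2.37 ± 0.81 and 2.35 ± 0.80), on 9, 10 and 4 counts at 8 d against 1, 1 and 2 counts in unirradiated lung. Hist1h3f had log2 changes of 2.0 ± 0.70, 1.56 ± 0.73 and 1.62 ± 0.72 that did not pass.

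**Figure D3:**
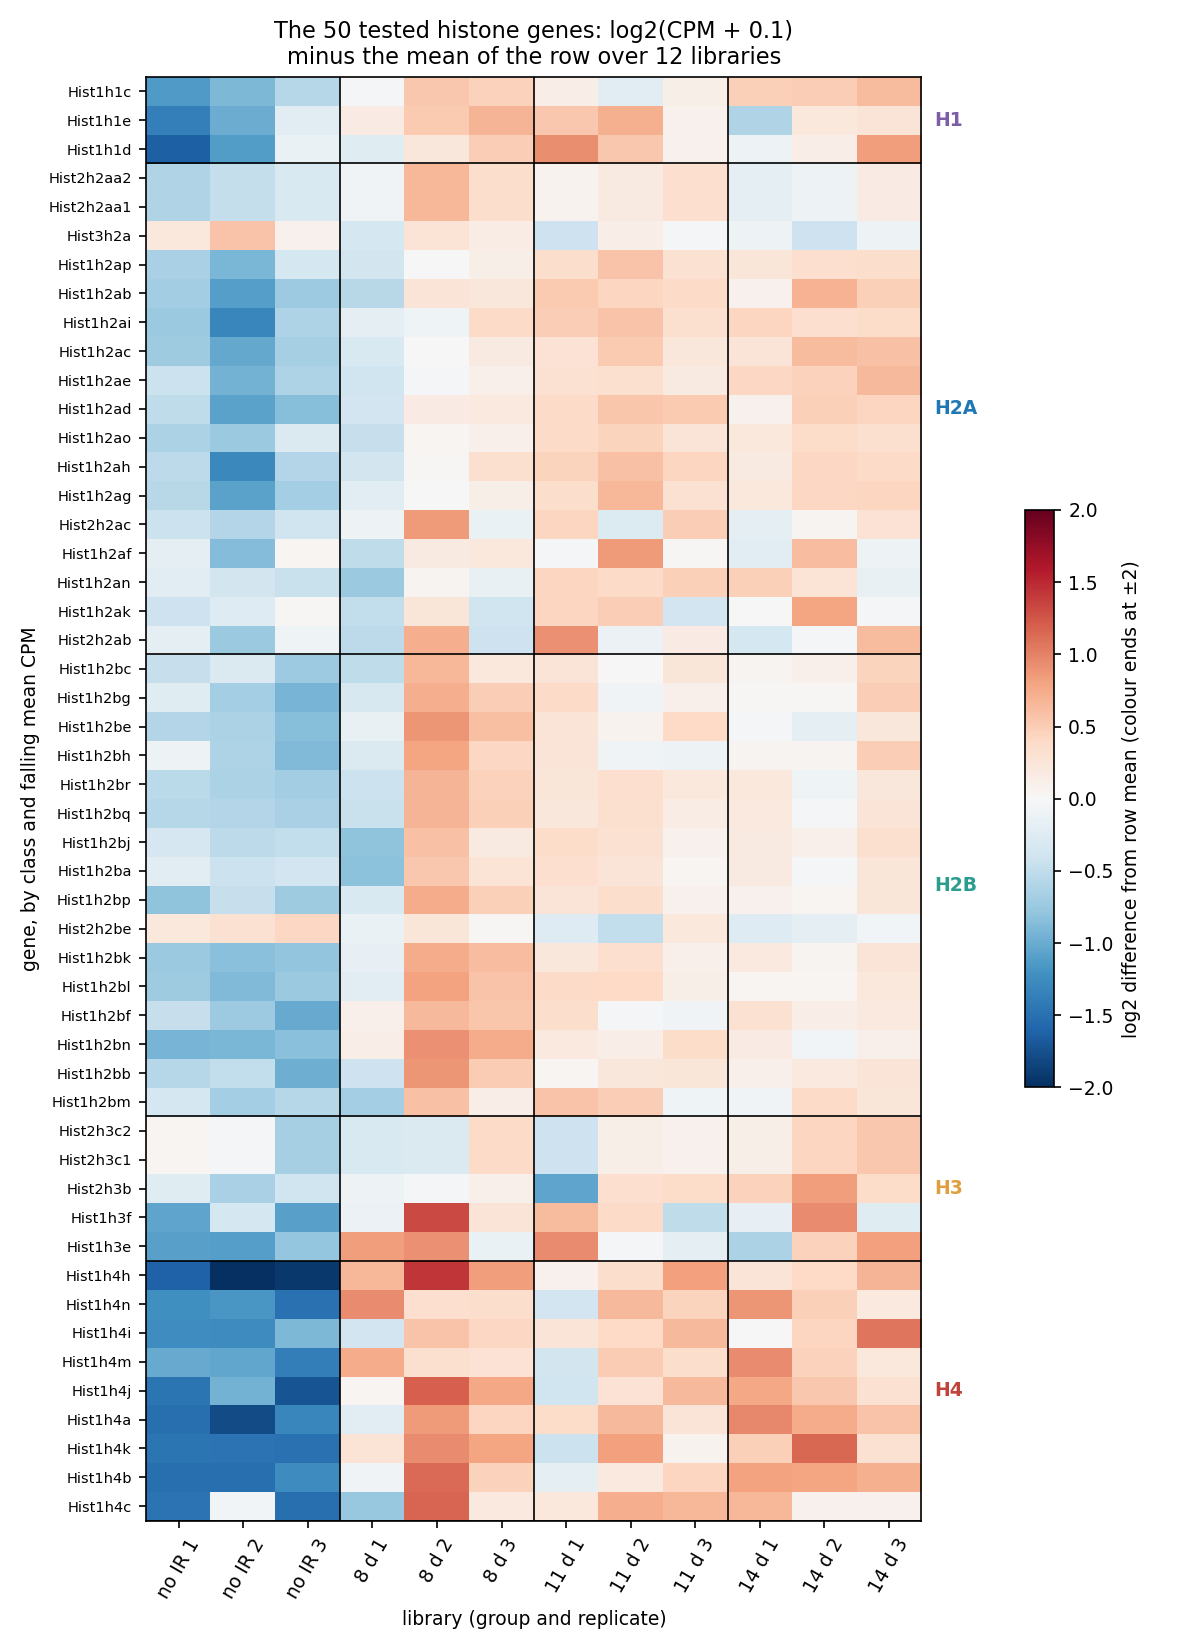
Level of each of the 50 tested histone genes (rows, by class) in the 12 libraries (columns), as log2(CPM + 0.1) minus the mean of the row over all libraries. The unirradiated columns are below the row mean in most rows, above it for Hist3h2a and Hist2h2be, and 8 d replicate 1 is lower than replicates 2 and 3 in all 16 H2B rows.

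Because many members share much of their sequence, reads may have been shared or split between them in the counting, and the sources used here do not say how reads with several matches were treated. Of the 68 genes, 32 share more than 50% of their 50-base stretches with another annotated gene, and 44 fall into 7 groups of copies. The groups are chains of pairwise links, so not all members of a group are alike: Hist1h2ac, in the group of 11 H2A genes, shares 14.1% of its stretches with any other gene, and 4 of the 6 genes in the Hist1h4h group share 50% or less. Hist2h3c1 and Hist2h3c2 had equal counts in all 12 libraries, and Hist2h2aa1 and Hist2h2aa2 were equal in 10 and differed by at most 2 counts. Hist1h2bq and Hist1h2br differed by at most 14 counts. Hist1h2bj held 1 to 1.18 times the counts of Hist1h2ba, which is in none of the 7 groups, so reads may be shared outside the groups too. Hist1h2ap held 1.78 to 2.16 times the counts of its closest copy Hist1h2ao, and Hist1h4n 1.71 to 2.12 times those of Hist1h4m. Of the 11 linked chromosome 13 H2A genes, 8 lay close together in each library, such as 49 to 62 counts in IR_8d replicate 2 and 36 to 46 in NoIR replicate 1. Equal counts on several rows mean that the rows may not be independent measurements, and whether the class sums count some reads more than once was not tested.

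With each group of copies summed to 1 row, 20 histone rows were tested, and 11, 12 and 10 were higher at 8, 11 and 14 d. In the fit with members kept apart, 13%, 19.4% and 20% of all genes tested were higher. The group of Hist1h4h and 5 other H4 genes changed by 2.80 ± 0.27, 2.36 ± 0.28 and 2.55 ± 0.27 on the log2 scale. The 11 H2A copies together changed by 0.67 ± 0.17, 1.13 ± 0.17 and 1.08 ± 0.17, and the 11 H2B copies by 0.80 ± 0.22, 0.73 ± 0.22 and 0.73 ± 0.22. Hist1h2bc held 68.8% of the counts of that H2B row. The 9 Hist1h3 genes, of which only Hist1h3e and Hist1h3f could be tested alone, together changed by 2.0 ± 0.55, 1.49 ± 0.56 and 1.82 ± 0.55, and were called at each time. With 1 row standing for each group of copies the sum over all classes was 338 CPM at 8 d, 318 at 11 d and 312 at 14 d, against 204 in unirradiated lung.

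**Figure D4:**
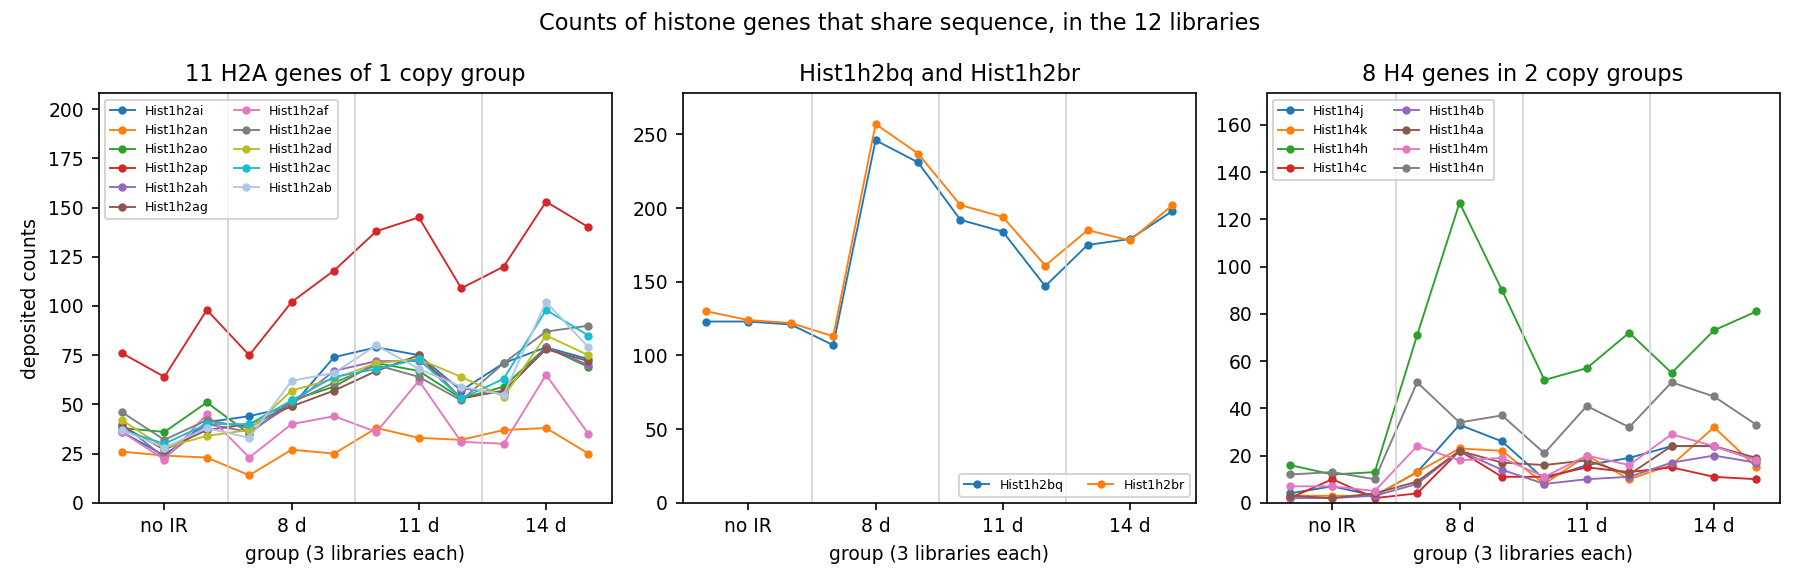
Deposited counts (linear axis from 0) of histone genes linked by shared sequence in the 12 libraries, 1 line per gene, with lines drawn only to follow a gene. Left, 11 H2A genes of chromosome 13, of which 8 lie close together and Hist1h2ap is the highest; middle, Hist1h2bq and Hist1h2br, which differ by at most 14 counts; right, 8 H4 genes, with Hist1h4h the highest.

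The 18 genes under the filter held 9 to 66 counts each over the 12 libraries, while the tested gene with the fewest held 65. They were 3 H1 genes, Hist1h2aa, the 3 H2B genes Hist3h2ba, Hist2h2bb and Hist3h2bb-ps, the 7 H3 genes Hist1h3a, b, c, d, g, h and i, and the 4 H4 genes Hist1h4d, Hist1h4f, Hist2h4 and Hist4h4. Hist1h3d, just outside the filter, held 4, 9 and 12 counts at 8 d, 7, 5 and 1 at 11 d and 6, 11 and 8 at 14 d, against 0, 3 and 0 in unirradiated lung. Hist2h2bb held no count in the 3 unirradiated libraries and 9, 18 and 10 counts in all at 8, 11 and 14 d. A count of 0 was taken to allow up to 3 counts over the unirradiated group. Against that limit the observed counts were 3.75-fold, 7.38-fold and 3.72-fold relative to library size at these times. Counting error in the irradiated counts and the spread between libraries are not covered, so these values are not lower bounds. The gene was singled out because it held no count without irradiation. No member was at 0 in all libraries.

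Genes of DNA replication, mitosis, histone handling and histone replacement were set beside the members. In S phase and replication, 12 of 26 genes rose at 8 d, 21 at 11 d and 17 at 14 d, with medians of 0.45, 0.80 and 0.63, and E2f1, a transcription factor of the G1 to S transition, fell at each time (log2 change -0.53 ± 0.18, -0.63 ± 0.18 and -0.64 ± 0.18). Ccne1, the cyclin that starts S phase, had 4.98 ± 1.06 CPM at 8 d, 7.5 ± 1.75 at 11 d and 7.07 ± 0.14 at 14 d, against 1.88 ± 0.449 in unirradiated lung, and Rrm2, which makes deoxynucleotides, rose at each time. In mitosis, 14 of 20 genes rose at 8 d and 20 at both 11 d and 14 d, with medians of 0.91, 1.59 and 1.47. The DNA topoisomerase Top2a, for example, had 58.7 ± 9.05 CPM at 8 d, 96.0 ± 22.6 at 11 d and 84.0 ± 10.5 at 14 d, against 27.0 ± 3.75. Summed, the mitosis genes stood at 296 to 361, 405 to 631 and 476 to 522 CPM at 8, 11 and 14 d, against 153 to 209 CPM in unirradiated lung. None of these lists was tested as a set. Over all genes tested, 13%, 19.4% and 20% were higher at 8, 11 and 14 d, and 10.6%, 17.8% and 18.9% lower.

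Of the 16 genes that make and end histone mRNA, 0, 2 and 2 were higher at 8, 11 and 14 d, beside 13%, 19.4% and 20% of all genes. The median log2 changes of this list were 0.06, 0.03 and 0.14 at 8, 11 and 14 d, none of its genes was called at 8 d, and Eri1, a nuclease that trims histone mRNA ends, and Cpsf2, a cleavage complex subunit, rose at 11 d and 14 d (Eri1 log2 change 0.66 ± 0.14 and 0.64 ± 0.14). Slbp had 34.3 ± 10.1 CPM at 8 d, 41.6 ± 5.39 at 11 d and 37.6 ± 5.56 at 14 d, against 30.6 ± 0.912 in unirradiated lung, and was not called, nor were Npat, Lsm10 and Lsm11. Among 20 histone chaperones, 4 rose at 8 d, 6 at 11 d and 4 at 14 d, while 1, 1 and 2 fell, beside 13%, 19.4% and 20% of all genes higher. Nasp, an H3 and H4 storage chaperone, and Chaf1a, a subunit of the factor that loads H3 and H4 on new DNA, rose at each time. Asf1b rose at 11 d and 14 d, Daxx, which loads the replacement histone H3.3, rose at each time, and Hira, the other H3.3 chaperone, fell at each time (log2 change -0.43 ± 0.13, -0.39 ± 0.13 and -0.37 ± 0.13).

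Replacement histones come from separate genes, and most can also be made outside S phase. Of 11, 4 rose at 8 d, 5 rose and 1 fell at 11 d, and 4 rose and 3 fell at 14 d. Beside them, 13%, 19.4% and 20% of all genes tested were higher at these times, and 10.6%, 17.8% and 18.9% lower. Cenpa, the centromeric H3 variant, H2afx, the variant phosphorylated at DNA breaks, and H2afy, which encodes macroH2A1, rose at each time, Cenpa by 0.68 ± 0.23, 1.51 ± 0.23 and 1.37 ± 0.23 on the log2 scale. H1f0, the linker histone of cells that do not divide, was lower at 14 d (42.8 ± 7.77 CPM, against 72.6 ± 18.9 in unirradiated lung; log2 change -0.76 ± 0.17). H2afv and H2afy2 also fell at 14 d. H3f3a and H3f3b, which encode H3.3, were not called at any time.

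**Figure D5:**
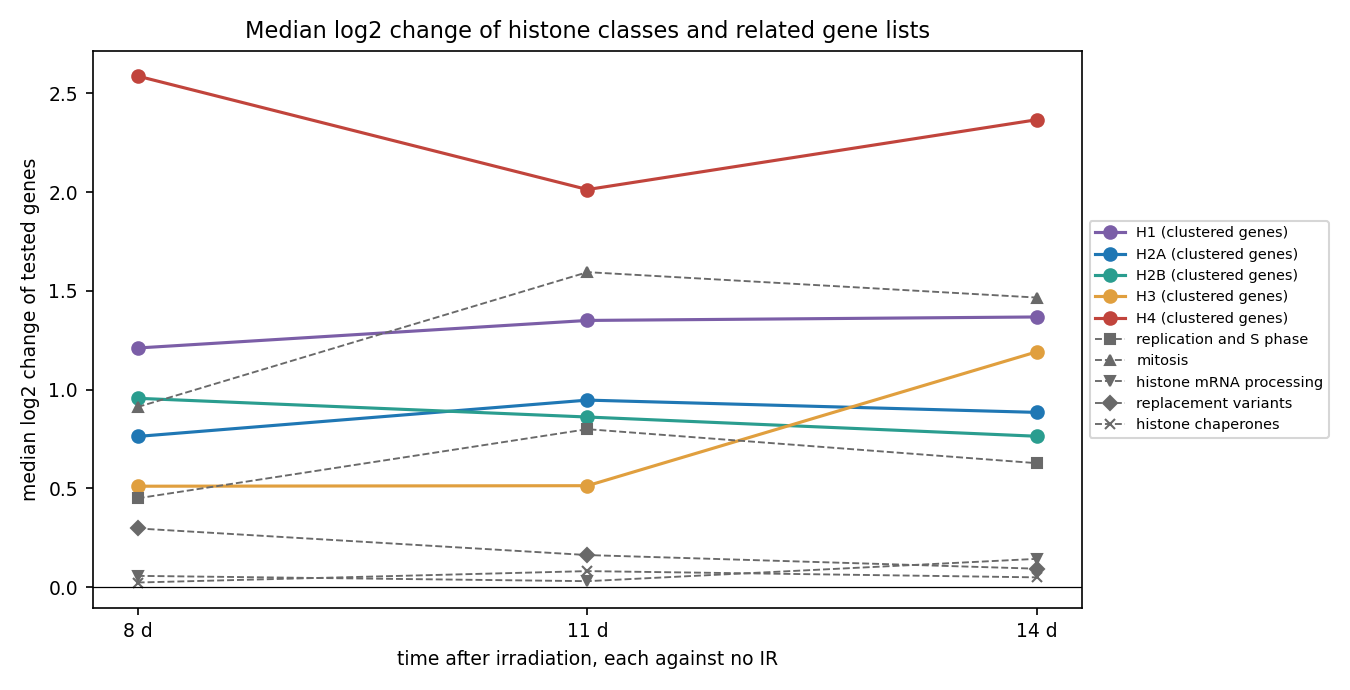
Median log2 change of the tested genes of each histone class (solid lines) and of 5 related gene lists (dashed lines) at 8, 11 and 14 d, each against unirradiated lung. The H4 line lies above all others, with medians of 2.59, 2.01 and 2.37, and the lists of histone mRNA processing genes, replacement variants and chaperones lie between 0.02 and 0.30.

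Markers of cell types moved with irradiation as well, and their part in the histone values was not tested. Beside the counts below, 13%, 19.4% and 20% of all genes rose at 8, 11 and 14 d, and 10.6%, 17.8% and 18.9% fell. Of 8 T cell markers 7, 8 and 7 rose at 8, 11 and 14 d, with sums of 150 to 186, 216 to 258 and 168 to 279 CPM against 73.6 to 78.7 CPM in unirradiated lung. Of 8 macrophage and monocyte markers 4, 6 and 8 rose, and 1 fell at 8 d, with sums of 6400 to 7446, 9415 to 14296 and 17996 to 23161 CPM against 7782 to 8565 CPM. Of 8 endothelial markers 4, 8 and 8 fell, with sums of 2437 to 2592, 1484 to 2110 and 933 to 1183 CPM against 3580 to 3914 CPM. Of 6 B cell markers 5, 1 and 1 rose, with sums of 80.8 to 104, 49.0 to 81.8 and 85.6 to 112 CPM against 35.3 to 61.0 CPM. Cd22 carried the 14 d sum, with a mean of 67.9 CPM against 14.55 CPM in unirradiated lung, while the other 5 B cell markers summed to 31.3 CPM at 14 d against 29.6 CPM. Of 5 neutrophil markers 3, 3 and 1 rose, with sums of 68.6 to 220, 74.1 to 123 and 62.4 to 67.95 CPM against 32.4 to 77.5 CPM. The epithelial markers, which check the lung label, were abundant in all groups, and 2, 5 and 5 of 8 fell, with sums of 30870 to 34638, 19993 to 30804 and 19515 to 22380 CPM against 41550 to 56924 CPM. Of 6 fibroblast markers 2 rose at each time and 2, 3 and 3 fell, with sums of 732 to 1062, 661 to 909 and 878 to 1065 CPM against 704 to 754 CPM. Of 7 haemoglobin genes tested 0, 0 and 7 fell. No marker of the T cell, macrophage, B cell, neutrophil, endothelial, epithelial or fibroblast lists was at 0 in any group.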

How the data were processed

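The values are raw counts per gene symbol, 1 table of 23282 lines per library, as deposited by the authors. Per the submitters' processing notes the reads were aligned with TopHat to mm10. The sources used here do not give the counting program, its annotation, its strand setting or how reads with several matches were treated. Per the labels' protocols, libraries were made from 1.3 µg of Trizol-extracted total RNA with the NEBNext Ultra II Directional kit. Lines of a repeated symbol (35 symbols) were summed. All 12 libraries were fitted together with edgeR 4.0.16 in R 4.3.3 (quasi-likelihood F test, TMM scaling, default expression filter), which tested 16484 symbols and removed 6754, with Benjamini-Hochberg adjustment over all tested symbols and a threshold of 0.05. The SE was taken as the size of the log2 change over the root of its F value. The fit was tested on simulated data. Sequences come from GENCODE M21 transcripts (all 68 members matched) and RefSeq GRCm38.p6 promoters (62 matched). Copies are genes of 1 class joined where more than 50% of the 50-base stretches of a transcript are shared with the other. Named members are the 4 highest in each class, the largest changes, copies and members under the filter. Named list genes are those with the lowest joint p, and others named were chosen after their values were seen. Members and lists were chosen with earlier results of these data known. Other settings were other scalings and filters, DESeq2 1.42.0, voom of limma 3.58.1, a replicate block, a fit of the compared groups alone, removal of Rn45s and haemoglobin genes, summed copies and each library left out. A further setting, 1 row for each group of copies, was chosen after seeing the data.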

Additional observations from a re-analysis of the deposited data

How the results depend on the processing

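The ratios of class sums kept their direction in every alternative run, and that of H4 ranged on the log2 scale between 2.25 and 2.58, 2.01 and 2.32, and 2.19 and 2.44 at 8, 11 and 14 d. Calls of single members depended more on the setting. With members linked by shared sequence summed, 20 rows were tested in place of 50, and 11, 12 and 10 were higher at 8, 11 and 14 d. In a fit of the compared groups only, 1 member was lower at 14 d. With 1 library left out, the members higher numbered 20 to 37 at 8 d (31 with all libraries), 28 to 34 at 11 d (37) and 22 to 30 at 14 d (33). Members lower at 11 d then numbered 0 to 1, and members called between 14 d and 8 d 0 to 4. The log2 change of Hist2h3c1 and of Hist2h3c2 turned below 0 without NoIR replicate 3, to -0.0395 at 8 d and -0.0534 at 11 d, and without IR_8d replicate 3, to -0.121 at 8 d. With 1 library left out it ranged from -0.121 to 0.300 at 8 d and from -0.0534 to 0.307 at 11 d. The causes were not tested. Among named members, 12 calls were lost and 9 gained over the settings that kept all libraries, and 51 lost and 6 gained over those that left 1 out. Most often lost were calls of Hist2h3b at 14 d (11 settings), Hist1h2bc at 8 d (8), and Hist1h2bg at 11 d, Hist1h2bh at 8 d and 14 d and Hist1h1d at 14 d (5 each). The genes called over the whole table ranged from 143 to 868 for 11 d against 8 d (353) and from 221 to 827 for 14 d against 11 d (296), and with 1 library left out from 2 to 545 and from 13 to 681. With 1 library left out they ranged from 2593 to 3544 for 8 d against unirradiated lung (3891) and from 1392 to 2548 for 14 d against 8 d (2536). Against unirradiated lung they then ranged from 4426 to 5453 at 11 d (6132) and from 5184 to 6060 at 14 d (6408). These counts of all genes take both directions. With a replicate block 30, 34 and 33 members were higher at 8, 11 and 14 d, and 0 were called between times. In that setting 3704, 5921 and 6288 of all genes were called in either direction at 8, 11 and 14 d. Between times 391 were called for 11 d against 8 d, 425 for 14 d against 11 d and 2476 for 14 d against 8 d. Same-numbered libraries correlated at -0.35 to 0.29 (median 0.04), with 5 of 18 pairs over 0.1 and no library best with its own number throughout. With 3 libraries per group such correlations cannot settle whether the replicate numbers pair the samples. Depth limits H3 and H4 most, since 6 of 9 tested H4 and 3 of 5 tested H3 genes held under 200 counts over the 12 libraries.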
